A study of Mus musculus with 4 samples.

Results

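Genes of glycolysis, of glucose and lactate transport and of pyruvate entry into mitochondria were followed in N9, an immortalised mouse microglial cell line, with and without nimodipine. Nimodipine, a dihydropyridine, is a blocker of L-type calcium channels, and the series asks what dihydropyridines do in murine microglia. There were 4 arrays, each of total RNA from N9 cells: vehicle 1, vehicle 2, 1 array at 10 µM nimodipine and 1 at 20 µM. All were grown in DMEM with serum and antibiotics; the exposure time, and which vehicle array belongs to which dose, are not given in the sources used here. The members were chosen by name, with earlier results of these data known. Of 34 genes listed, 31 had a probe set annotated to that gene alone, among 22180 genes measured. Gpi1, Aldoa and Eno1 had no such probe set and were not analysed here. Values are log2 expression, so a difference of -1 is a halving, and every member had a mean above 5.04, the median of all values.

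Glycolysis splits glucose into pyruvate in the cytosol. Glucose enters through SLC2A carriers and is trapped by hexokinase; phosphofructokinase commits it to breakdown; pyruvate then either becomes lactate, which leaves through SLC16A carriers, or enters mitochondria and is turned to acetyl-CoA by pyruvate dehydrogenase, an enzyme that the PDK kinases switch off. Microglia and macrophages raise glycolysis when activated by inflammatory stimuli, and many of these genes are known targets of the hypoxia-inducible factors (HIF).

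The 10 µM array stood apart from the others over the whole transcriptome: 1.06% of all genes were lower than the mean of the vehicle arrays by at least 1 log2 unit and 0.514% higher, against 0.0496% and 0.0361% at 20 µM and 0.0676% and 0.0451% between the vehicle arrays. Of the microglia and macrophage markers 11 of 12 were measured. Cd68, Csf1r, Tyrobp and Trem2 read 9.76 or more on every array, and Ptprc, Itgam and Spi1 read 8.35 or more. Cx3cr1 read between 6.44 and 6.88, and Aif1 between 5.74 and 5.93. P2ry12 and Tmem119, which mark resting microglia in the brain, lay below the median of all values on every array. None of these 11 markers passed either limma fit described next. Their median difference at 10 µM was -0.15, with Itgam the furthest at -0.77. Of 19 measured markers of astrocytes, neurons, oligodendrocytes, fibroblasts and endothelium, 9 had a mean below the median of all values. Mbp had the highest level of the 19, between 7.23 and 7.70, which is above Aif1 and Cx3cr1 on every array. Pdgfra, between 6.52 and 7.08, also lay above both on every array.

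As a group, the pathway genes stood lower on the 10 µM array and close to vehicle on the 20 µM array. At 10 µM, 25 of the 31 stood below the vehicle mean and 6 above it, beside 47.6% and 52.4% of all genes; at 20 µM the split was 22 and 9, beside 50.7% and 49.3%. The median difference of the 31 genes was -0.39 at 10 µM and -0.05 at 20 µM, where the medians of all genes were 0.013 and -0.0028; between the vehicle arrays the pathway median was -0.07. Both doses are set against the same vehicle arrays. The list was drawn up with earlier results of these data known, so its distance from all genes is a description. At 10 µM 14 members were lower by 0.5 or more and 0 higher, beside 6.18% and 3.92% of all genes; at 20 µM 1 was lower and 0 higher, beside 1.29% and 1.45%. Fewer cells carrying a transcript and less transcript per cell cannot be told apart in bulk RNA.

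The comparison of nimodipine with vehicle, 2 arrays against 2, called no member. Its nimodipine side holds both doses, so the spread behind its p-values includes the difference between them. A change present at a single dose is therefore hard to call here. In limma with Benjamini-Hochberg adjustment over all genes, 0 of the 31 members and 0.0% of all genes passed in either direction, and the smallest adjusted p of a member was 0.792. At an unadjusted p under 0.05, 3 members were lower (Pfkm, Pdk1 and Pdk2) and 0 higher, beside 2.98% and 2.39% of all genes. Both nimodipine arrays lay below both vehicle arrays for 10 members and above both for 0, beside 18.2% and 19.2% of all genes. These 10 were Slc2a1, Pfkm, Tpi1, Bpgm, Eno3, Ldha, Pdk1, Pdk2, Pdk3 and Gys1.

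With the doses taken apart, 6 members were lower by 1 or more at 10 µM and 0 higher: Slc2a1, Hk2, Eno3, Pdk1, Pdk2 and Slc16a3. At 20 µM the count was 0 each way. The same 6 genes, and no other member, passed limma at 10 µM in an alternative fit of 3 groups (vehicle, 10 µM, 20 µM), where 1.08% of all genes were called lower and 0.509% higher. All adjusted p-values and standard errors below come from that fit. It has 1 residual degree of freedom and takes a lone array to vary like the vehicle pair, so no call at 10 µM has a replicate of that dose behind it, and "fell" describes that array. At an unadjusted p under 0.05 the same fit had 16 members lower and 0 higher at 10 µM, beside 9.71% and 7.19% of all genes. At 20 µM it called 0 members (smallest limma adjusted p 0.762) and 0.0% of all genes; at an unadjusted p under 0.05 it had 1 member lower, Pdk2, and 0 higher, beside 3.14% and 3.25%. The 10 µM array was the lowest of the 4 for 24 members and the highest for 6, beside 28.9% and 30.6% of all genes, and the 20 µM array was the lowest for 4, beside 23.4%. For 30 members the direction at 10 µM was the same under each scaling, averaging of probe sets and single vehicle array tried. Eno2 was the exception. Other probe sets were not tried singly, and 1 of Gapdh went the other way, by 0.20.

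**Figure D1:**
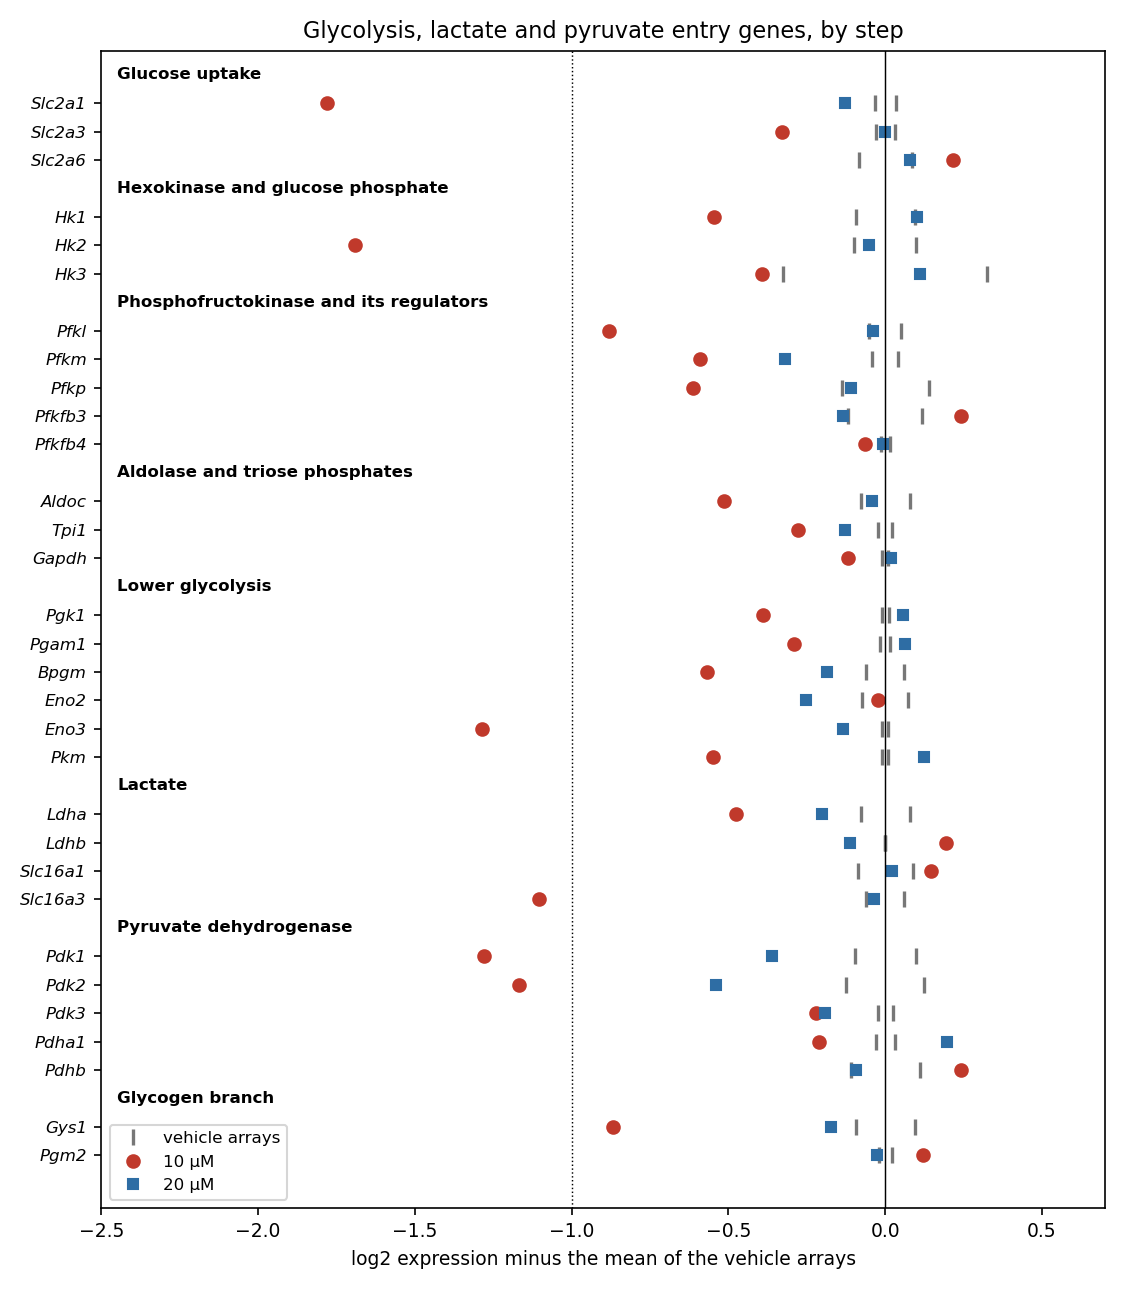
Log2 expression of the 31 measured genes minus the mean of the vehicle arrays, in pathway order. Grey ticks are the vehicle arrays, red circles the 10 µM array and blue squares the 20 µM array, 1 array each, and the dotted line marks -1. The 10 µM circles of Slc2a1, Hk2, Eno3, Slc16a3, Pdk1 and Pdk2 lie left of it, and the blue squares lie between -0.54 and 0.20.

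Glucose uptake came first in the pathway. Slc2a1 encodes GLUT1, the carrier behind basal glucose uptake in most cells. It read 12.51 and 12.45 with vehicle, 10.70 at 10 µM and 12.35 at 20 µM. The 10 µM value was the outlying one, while the 20 µM value lay just under both vehicle arrays. The difference at 10 µM was -1.78 ± 0.15 (limma SE, 1 array against 2), which leaves 29.1% of the vehicle mean (3.43-fold lower; limma adjusted p = 0.0126). A dimmer probe set of the same gene differed by -0.47. Slc2a3, a high-affinity glucose carrier best known from neurons, read 7.79 and 7.85, then 7.49 and 7.82. Only its 10 µM value lay outside the vehicle pair, and its difference of -0.33 did not pass (limma adjusted p = 0.327). Slc2a6, a lysosomal hexose carrier of macrophages, read 7.81 and 7.97, then 8.11 and 7.97, with a difference of 0.22 at 10 µM.

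The hexokinases phosphorylate glucose and so keep it in the cell. Hk2, the inducible isoform, read 9.62 and 9.43 with vehicle, 7.83 at 10 µM and 9.47 at 20 µM. It fell at 10 µM to 31.0% of the vehicle mean, a difference of -1.69 ± 0.16 (limma SE; adjusted p = 0.0185), and at 20 µM lay between the vehicle arrays. Hk1, the constitutive isoform, read 8.09 and 7.91, then 7.45 and 8.10. Its difference of -0.55 at 10 µM had a 95% interval of -0.94 to -0.16 and missed the adjusted threshold (limma adjusted p = 0.174). Hk3, the isoform of myeloid cells, read 7.87 and 8.52, then 7.81 and 8.31; the vehicle arrays differed by 0.65, the widest vehicle gap of any member, and the 10 µM value lay just below them.

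All 3 subunit genes of phosphofructokinase, the rate-setting enzyme, stood lower at 10 µM, and none passed. Pfkl, the liver-type subunit, read 9.26 and 9.16 with vehicle, 8.33 at 10 µM and 9.17 at 20 µM, a difference of -0.88 ± 0.15 (limma SE; adjusted p = 0.0574). It was the member nearest the threshold without passing. Pfkm, the muscle-type subunit, read 8.88 and 8.97, then 8.33 and 8.61, and lay below both vehicle arrays at both doses. Pfkp, the platelet-type subunit, read 12.28 and 11.999, then 11.53 and 12.03. Their differences at 10 µM were -0.59 and -0.61. The bifunctional enzymes that set the level of an activator of phosphofructokinase differed less in size. Pfkfb3 read 6.57 and 6.33, then 6.69 and 6.32. Pfkfb4 differed by -0.07 at 10 µM and -0.0074 at 20 µM.

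Below phosphofructokinase the sugar is split into trioses. Aldoc, an aldolase (Aldoa was not analysed), read 11.34 and 11.19 with vehicle, 10.75 at 10 µM and 11.22 at 20 µM. Tpi1, which interconverts the triose phosphates, read 12.61 and 12.65, then 12.35 and 12.50. Gapdh, the dehydrogenase often used as a reference transcript, read 13.88 and 13.90, then 13.77 and 13.91. Its difference of -0.12 at 10 µM was the smallest in size of these 3, with a 95% interval of -0.47 to 0.23. Its other probe sets differed by -0.11 and 0.20. A further 8 probe sets carry Gapdh beside another symbol and were not used, and signal from near-identical copies of such genes cannot be separated on the array.

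Pgk1, the first ATP-forming step, read 13.30 and 13.33 with vehicle, 12.93 at 10 µM and 13.37 at 20 µM. The mutase Pgam1 read 11.85 and 11.82, then 11.54 and 11.89. A dimmer Pgam1 probe set moved more, by -0.84 at 10 µM against -0.29, so the size of this gene's difference depends on the probe set. Bpgm, which makes the bisphosphoglycerate that tunes haemoglobin in red cells, differed by -0.57 at 10 µM.

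The measured enolases, which leave out Eno1, parted at 10 µM. Eno3, the muscle enolase, read 9.78 and 9.80 with vehicle, 8.51 at 10 µM and 9.66 at 20 µM. It fell at 10 µM, with a difference of -1.29 ± 0.14 (limma SE; adjusted p = 0.0244), and its vehicle arrays differed by only 0.02. Eno2, the neuronal enolase, read 10.85 and 10.71, then 10.76 and 10.53, and its 10 µM value lay between the vehicle arrays. Its 95% interval at 10 µM, -0.40 to 0.35, lay above that of Eno3, -1.64 to -0.93; the difference between the enolases was not tested. Pkm, pyruvate kinase, the last enzyme of glycolysis, read 13.24 and 13.26, then 12.70 and 13.38. Its difference of -0.55 at 10 µM was far wider than its vehicle gap of 0.02 but missed the adjusted threshold (limma adjusted p = 0.146).

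Pyruvate is reduced to lactate and exported. Ldha, the dehydrogenase subunit that favours lactate formation, read 9.04 and 8.88 with vehicle, 8.49 at 10 µM and 8.76 at 20 µM, below both vehicle arrays at both doses. Ldhb, the subunit that favours lactate use, read 5.71 and 5.71, then 5.90 and 5.60. Slc16a3 encodes MCT4, the export carrier of strongly glycolytic cells, and read 9.40 and 9.27, then 8.23 and 9.30. It fell at 10 µM to 46.5% of the vehicle mean, a difference of -1.10 ± 0.15 (limma SE; adjusted p = 0.0367), and at 20 µM lay between the vehicle arrays. Slc16a1, which encodes MCT1, a carrier of lactate and pyruvate in either direction, read 10.38 and 10.21, then 10.44 and 10.32. Its difference of 0.15 at 10 µM had a 95% interval of -0.24 to 0.53, which does not reach that of Slc16a3 (-1.47 to -0.74).

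Pyruvate that is not reduced enters mitochondria. Pdk1, a kinase that switches pyruvate dehydrogenase off, read 9.21 and 9.02 with vehicle, 7.84 at 10 µM and 8.76 at 20 µM. It fell at 10 µM, with a difference of -1.28 ± 0.16 (limma SE; adjusted p = 0.0321). Its other probe set read between 2.92 and 3.12, and with the mean of both Pdk1 was neither past -1 nor called at 10 µM. Pdk2, a broadly expressed kinase of the same family, read 8.10 and 7.85, then 6.81 and 7.44, and fell at 10 µM, with a difference of -1.17 ± 0.17 (limma SE; adjusted p = 0.0420). Both kinases lay below both vehicle arrays at both doses. Pdk2 had the largest difference of any member at 20 µM, -0.54, where its vehicle arrays differed by -0.25 (limma adjusted p = 0.762). Pdk3 read 8.91 and 8.96, then 8.71 and 8.74, nearly the same at both doses. Of the enzyme's own subunits, Pdha1 differed by -0.21 at 10 µM and 0.20 at 20 µM, and Pdhb by 0.24 and -0.09, and neither passed at either dose.

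A side branch stores glucose as glycogen. Gys1, glycogen synthase of non-hepatic tissues, read 10.30 and 10.11 with vehicle, 9.33 at 10 µM and 10.03 at 20 µM. Its difference of -0.87 ± 0.16 at 10 µM missed the threshold (limma SE; adjusted p = 0.0699). Pgm2, a phosphoglucomutase family enzyme that also acts on phosphopentoses, read 9.48 and 9.52, then 9.62 and 9.47.

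**Figure D2:**
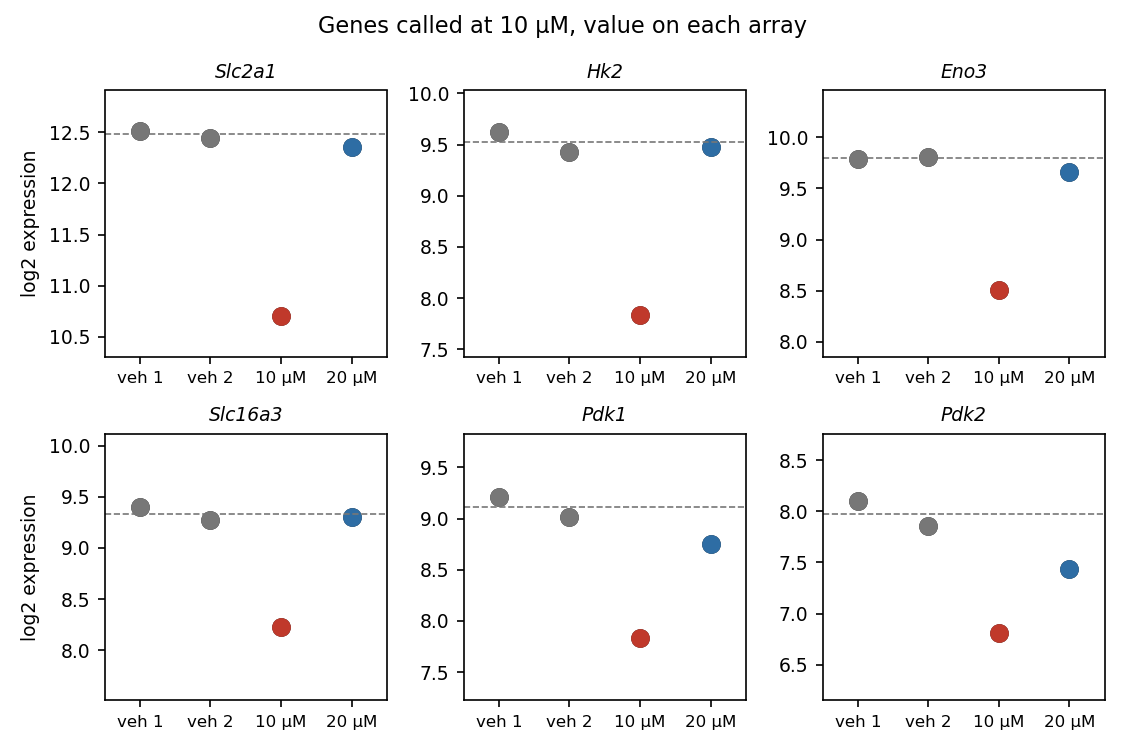
Log2 expression on each array of the 6 genes called at 10 µM; each panel spans the same range of log2 units, and the dashed line is the vehicle mean. The 10 µM point is the lowest in every panel; the 20 µM point lies between the vehicle points for Hk2 and Slc16a3 and below both for the other genes.

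The doses were also compared directly in the fit of 3 groups, where 0.171% of all genes were called higher at 20 µM than at 10 µM and 0.144% lower. At an unadjusted p under 0.05, 13 members were higher and 0 lower, beside 7.35% and 6.31% of all genes. This contrast sets 1 array against 1, and its spread comes from the vehicle pair alone, moderated by limma over all genes, so neither dose was replicated. After adjustment 2 passed: Slc2a1, higher at 20 µM by 1.65 ± 0.17 (limma SE; adjusted p = 0.0357), and Hk2, by 1.64 ± 0.18 (limma SE; adjusted p = 0.0465). Eno3 and Slc16a3, higher at 20 µM by 1.15 and 1.07 on the log2 scale, missed the threshold. Pdk1 and Pdk2, higher by 0.92 and 0.63, missed it too. The call for Slc2a1 was lost when the mean of its probe sets was taken.

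**Figure D3:**
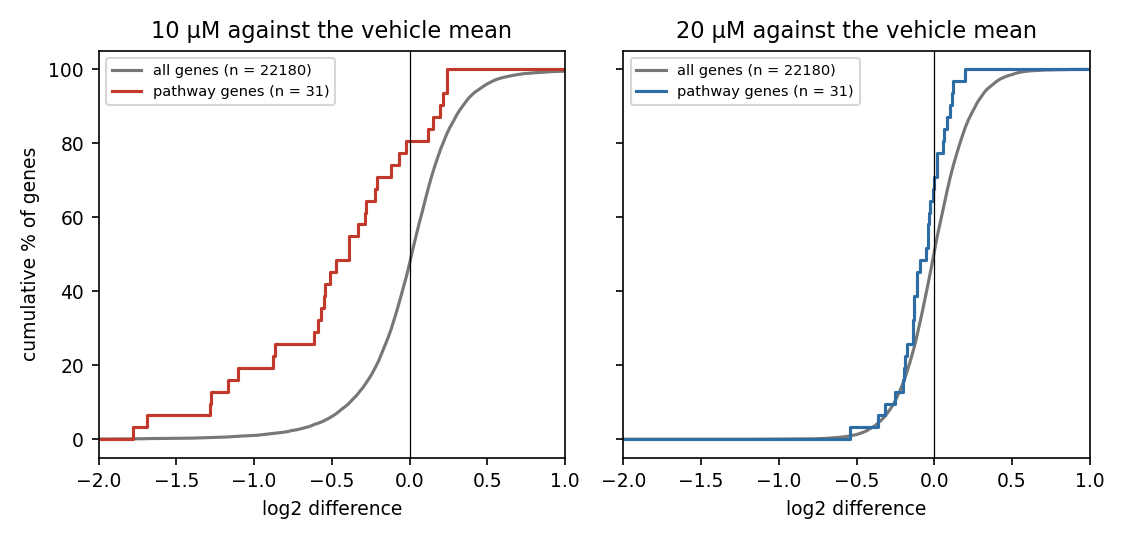
Cumulative share of genes (vertical axis, percent) at or below each log2 difference from the vehicle mean, for the 31 pathway genes and for all 22180 genes, between -2 and 1. At 10 µM the pathway curve lies left of the curve of all genes over the range of the pathway genes (medians -0.39 and 0.013); at 20 µM the medians are closer (-0.05 and -0.0028), and 22 of the 31 lie below 0, beside 50.7% of all genes.

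For the 6 genes called at 10 µM, which moved in the same direction on that array, the 250 bases before the RefSeq start (GRCm38.p6) are shown, with Pfkl and Gys1, which stood lower without passing, 1 with a match and 1 without. Capitals mark ACGTG or GCGTG on either strand (CACGT or CACGC when read on the strand shown), the core letters that HIF can bind; a match is a description of letters and not a bound site. The stretches are chr4:119108495-119108744 (plus strand) for Slc2a1, chr6:82774455-82774704 (minus strand) for Hk2, chr11:70656926-70657175 (plus strand) for Eno3, chr11:120948817-120949066 (plus strand) for Slc16a3, chr2:71872974-71873223 (plus strand) for Pdk1, chr11:95041372-95041621 (minus strand) for Pdk2, chr10:78009808-78010057 (minus strand) for Pfkl and chr7:45434589-45434838 (plus strand) for Gys1. For Pdk1 and Pdk2 the first of 2 starts in the table is shown; the other start of each holds no match.
Slc2a1: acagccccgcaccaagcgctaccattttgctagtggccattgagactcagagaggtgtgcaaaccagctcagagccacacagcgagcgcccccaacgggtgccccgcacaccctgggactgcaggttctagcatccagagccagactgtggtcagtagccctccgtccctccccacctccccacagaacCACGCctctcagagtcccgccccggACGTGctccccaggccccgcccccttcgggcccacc
Hk2: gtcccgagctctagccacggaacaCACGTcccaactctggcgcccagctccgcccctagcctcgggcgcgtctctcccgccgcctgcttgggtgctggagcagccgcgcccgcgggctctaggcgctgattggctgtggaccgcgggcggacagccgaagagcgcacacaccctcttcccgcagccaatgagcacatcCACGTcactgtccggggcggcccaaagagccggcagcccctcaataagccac
Eno3: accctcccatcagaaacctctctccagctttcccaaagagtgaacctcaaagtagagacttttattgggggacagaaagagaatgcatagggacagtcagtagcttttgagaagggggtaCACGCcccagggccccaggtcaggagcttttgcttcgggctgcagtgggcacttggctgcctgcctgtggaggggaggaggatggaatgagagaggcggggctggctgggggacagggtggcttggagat
Slc16a3: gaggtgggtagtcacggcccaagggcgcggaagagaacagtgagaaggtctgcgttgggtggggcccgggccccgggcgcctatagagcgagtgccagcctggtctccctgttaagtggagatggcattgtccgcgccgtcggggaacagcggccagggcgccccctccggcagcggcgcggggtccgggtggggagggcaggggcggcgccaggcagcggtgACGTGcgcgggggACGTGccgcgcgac
Pdk1: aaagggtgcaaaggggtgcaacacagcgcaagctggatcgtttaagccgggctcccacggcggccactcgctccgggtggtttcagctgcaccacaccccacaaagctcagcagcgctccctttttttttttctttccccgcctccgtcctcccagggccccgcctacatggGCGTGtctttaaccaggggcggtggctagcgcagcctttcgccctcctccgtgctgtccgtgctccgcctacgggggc
Pdk2: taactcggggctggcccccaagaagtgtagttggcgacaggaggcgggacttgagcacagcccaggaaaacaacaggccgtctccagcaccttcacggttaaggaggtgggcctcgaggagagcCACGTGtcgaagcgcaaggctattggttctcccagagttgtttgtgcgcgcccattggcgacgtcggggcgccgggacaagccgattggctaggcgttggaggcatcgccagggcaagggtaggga
Pfkl: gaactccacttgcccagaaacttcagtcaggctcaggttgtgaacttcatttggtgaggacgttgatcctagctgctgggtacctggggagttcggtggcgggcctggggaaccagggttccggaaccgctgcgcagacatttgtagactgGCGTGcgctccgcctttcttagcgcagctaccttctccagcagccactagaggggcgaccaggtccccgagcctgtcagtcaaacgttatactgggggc
Gys1: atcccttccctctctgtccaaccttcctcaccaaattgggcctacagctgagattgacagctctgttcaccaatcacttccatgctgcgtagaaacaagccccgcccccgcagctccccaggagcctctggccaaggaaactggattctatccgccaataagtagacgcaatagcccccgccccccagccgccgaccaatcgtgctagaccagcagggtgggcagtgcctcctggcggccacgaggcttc
Slc2a1 holds the letters 61 and 36 bases before its start, and Slc16a3 holds them 27 and 14 bases before. In Pdk2 a single palindrome, CACGTG, which Myc and related factors can bind, gives the match on both strands. Pfkl holds GCGTG 99 bases before its start. Gys1 is 1 of the 4 members with no match; most members that did not pass hold one.

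The letters were common among all the members, whether they fell or not. Of the 30 members in the promoter table (Slc2a3 had no entry), 26 held ACGTG or GCGTG before at least 1 start, including all 6 that fell and 20 of the other 24. Over the 16990 measured genes in that table the share was 47.8%. Counted start by start, it was 77.5% of 40 member starts, beside 38.6% of all 32851 starts in the table, whether the gene was measured or not. GC content differed too, with a median of 60.4% for the member starts and 52.4% for all starts. By gene the median was 62.0% for the members (the richest start of each gene) and 56.4% for the measured genes. The part of GC content in either count was not tested. CACGTG was held by 5 of the 30 members, beside 7.83% of measured genes.

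Genes next to this pathway were described from further lists. Their counts at 10 µM stand beside 47.6% of all genes lower than the vehicle mean and 52.4% higher. The shares of all genes called in the fit of 3 groups are given above. Of 7 measured pentose phosphate genes, which branch off glucose phosphate to make NADPH and ribose, 6 stood higher at 10 µM and 1 lower, with a median of 0.20; 0 passed limma. Rpia, which makes ribose phosphate, read 7.35 and 7.21 with vehicle, 7.90 at 10 µM and 7.29 at 20 µM. Taldo1, transaldolase, differed by 0.46 at 10 µM and H6pd by 0.31. Other isozymes and glucose carriers (20 measured) were split 10 and 10 at 10 µM with 0 called; Slc2a4, the insulin-responsive carrier, differed by -0.41 at 10 µM and -0.45 at 20 µM, Galm by -0.35 and -0.14, and Pklr by 0.35 and 0.18.

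Among 14 other genes of lactate and pyruvate handling 8 stood lower at 10 µM and 0 passed. Me1, the cytosolic malic enzyme, read 8.02 and 8.13 with vehicle, 8.81 at 10 µM and 7.81 at 20 µM (limma adjusted p = 0.0879 at 10 µM). Pdp1, the phosphatase that undoes the work of the PDK kinases, differed by -0.63 at 10 µM. Bsg, basigin, the chaperone that brings lactate carriers to the membrane, read 12.58 and 12.47, then 12.04 and 12.36.

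Of 15 genes of glycogen and glycan side paths 12 stood lower at 10 µM and 0 passed: Pgm2l1 differed by -0.61 and Ugp2 by -0.42, while Gyg, the glycogenin primer, stood higher by 0.72. The citrate cycle (16 measured) had a median of -0.06 at 10 µM, with 10 lower, 6 higher and 0 called; Sdhd differed by -0.44, Fh1 by -0.43 and Sdhb by 0.34.

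Of 18 regulators, 11 stood lower at 10 µM and 1 was called. That was Egln3, an oxygen-sensing prolyl hydroxylase that is itself a HIF target, at 8.35 and 8.91 with vehicle, 4.79 at 10 µM and 8.45 at 20 µM (limma adjusted p = 0.0061); the 10 µM value lies under the overall median, and no fold is given. Egln1 and Epas1, a further hydroxylase and a HIF subunit, differed by -0.85 and -0.76 and missed the threshold (limma adjusted p = 0.0750 and 0.0781). Oxygen, glucose and lactate were not measured, and their part in the values was not tested.

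**Figure D4:**
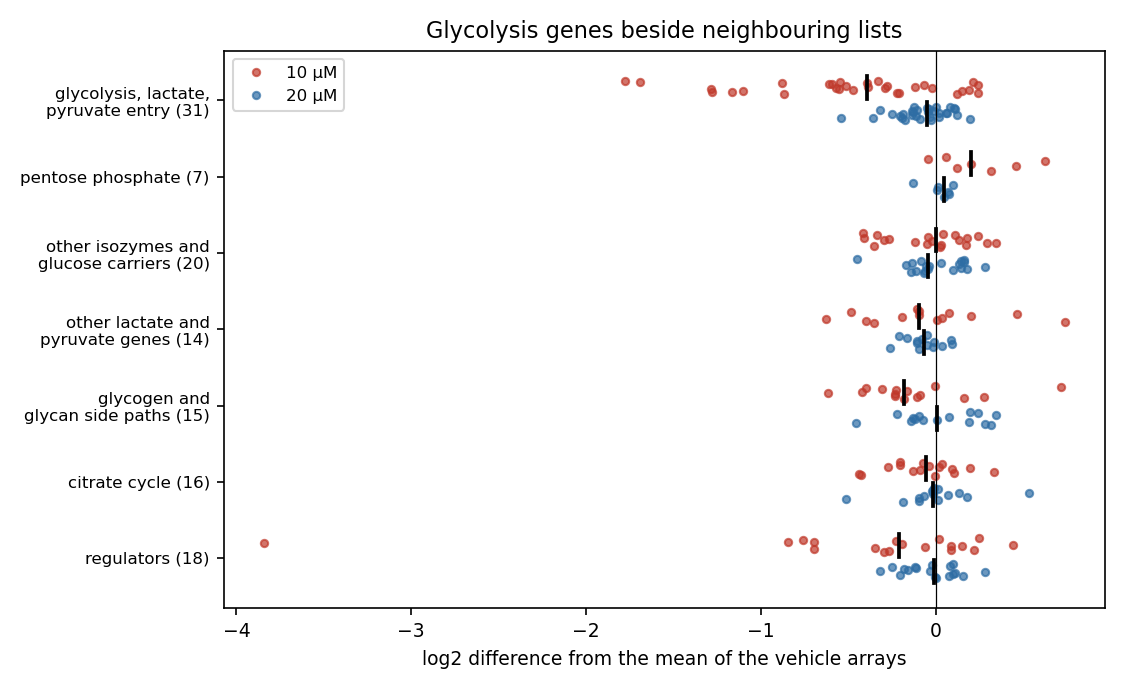
Log2 difference from the vehicle mean of every measured gene (points) in the pathway and in 6 neighbouring lists, at 10 µM (red) and 20 µM (blue), with the number of genes in brackets and black bars at the medians. The 10 µM median is -0.39 for the pathway, 0.20 for pentose phosphate genes and -0.06 for the citrate cycle; the point furthest left is Egln3.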

How the data were processed

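Total RNA of N9 cells was hybridised to 4 Affymetrix arrays, per the labels' protocols. Values were deposited on the log2 scale for each probe set, and the authors made them by RMA in Expression Console (version 1.2.1.20), per the submitters' processing notes. RMA sets all arrays to a common distribution, so that a change common to most genes could not be seen, and there is no detection call. Of 41345 probe sets, 23521 had 1 gene symbol in the platform annotation and 1814 several; the probe set with the highest mean was taken for each gene. limma 3.58.1 (R 4.3.3; lmFit and eBayes) was run over all 22180 genes with Benjamini-Hochberg adjustment and a threshold of 0.05, with nimodipine against vehicle (2 arrays against 2) as the main comparison and a fit of 3 groups as an alternative for each dose and for the difference between doses. The procedure was tested on simulated data with changes added to both nimodipine arrays. A change on a single array was not simulated. No label ties the vehicle arrays to separate cultures; the spread that p-values rest on may therefore be technical. Precision is limited by the small number of arrays. The members and lists were chosen with earlier results of these data known. All measured members are named, and from each neighbouring list up to 3 genes with the largest difference at 10 µM among those not below the median of all values; single cell type markers were named after their values were seen.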

Additional observations from a re-analysis of the deposited data

Results flagged for a closer look

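Slc2a1 stood higher on the 20 µM array than on the 10 µM array by 1.65 on the log2 scale (limma adjusted p = 0.0357, fit of 3 groups). Hk2 did likewise, by 1.64 (limma adjusted p = 0.0465). Each dose had 1 array, and the spread behind these p-values comes from the vehicle pair alone (1 residual degree of freedom, moderated over all genes), so they describe these arrays and show no replicated difference between the doses. No group had enough arrays for a check of single outlying arrays.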

How the results depend on the processing

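No paired analysis was possible because no label ties a vehicle array to a dose. The count of members called for nimodipine against vehicle was 0 under all alternatives tried except those that rest on the 10 µM array alone: 6 in its contrast of the fit of 3 groups, and between 0 and 6 when each array was left out in turn, the higher value with 20 µM dropped, the lower with any other array dropped. The median difference of the members moved from -0.21 to between -0.39 (without the 20 µM array) and -0.053 (with the 10 µM one dropped). With a limit of 0.5 in place of 1, 14 members were lower at 10 µM and 1, Pdk2, at 20 µM. The count called between the doses was 2; dropping dim probe sets gave 6, averaging probe sets 1, and there were 4 with equal array medians, 4 with cyclic loess and 8 with a trend in eBayes. The count called at 10 µM, whose alternatives were chosen after seeing the data, was 6; dropping dim probe sets gave 11, and there were 13 with a trend, and between 5 and 8 otherwise. The share of all genes called under each alternative is not given here. A change in these counts therefore cannot be read as particular to the members. At 20 µM 14 members changed sign under some alternative, all with differences of 0.11 or less. Averaging its probe sets took Pdk1 out of the genes lower by 1 or more and out of those called at 10 µM.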

Other observations

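Some citrate cycle genes differed more at 20 µM than at 10 µM. Dlst, a subunit of the oxoglutarate dehydrogenase complex, differed by 0.54 at 20 µM and -0.27 at 10 µM. Sdhc, a membrane anchor of succinate dehydrogenase, differed by -0.52 at 20 µM and 0.11 at 10 µM. Neither passed limma at either dose, and both were singled out after their values were seen.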
